A study of Danio rerio with 30 samples.

Results

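The large ribosomal subunit protein genes of the zebrafish were examined in cells sorted as blood stem and progenitor cells that had lost 1 copy of a small-subunit gene. Members were all genes whose symbol starts with RPL or RPLP followed by a number, with the RPL22 pair left out. The rule found 44 genes among the 20631 in the count table, and all 44 passed the filter on low counts that left 19930 genes for testing. Symbols are those of the reference name table, which spells most zebrafish genes in capitals as for the human gene. RPL5 stands there for a pair of gene copies (ENSDARG00000015862 and ENSDARG00000020197), and rplp2 has a close relative in rplp2l. RPL26 was not analysed here.

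A cytosolic ribosome has a small subunit, which reads the message, and a large subunit, which joins the amino acids, and each subunit carries its own set of proteins. Cells keep these proteins in matched amounts, and an unpaired ribosomal protein is quickly degraded. The messages of ribosomal proteins start with a run of pyrimidines, the TOP motif, through which growth signals control their translation and stability together. In humans, loss of 1 copy of RPS14 underlies the anaemia of the 5q- form of myelodysplastic syndrome, and loss of 1 copy of several other ribosomal protein genes causes Diamond-Blackfan anaemia.

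RNA-seq libraries were made by Smart-seq2, a full-length cDNA method, from itga2b:GFP-low cells of 6-day-old larvae. In this transgenic line the promoter of itga2b, a platelet integrin gene, drives GFP, and weakly fluorescent cells are taken as blood stem and progenitor cells. Both genotypes, rps14+/+ (wild type) and rps14+/- (heterozygous), carried the transgene and were studied in 4 conditions. Larvae were unstressed or had been kept with phenylhydrazine (Phz, 1 µg/mL), which lyses red cells, between 24 and 48 hours of development, and then spent 4 days in DMSO or in 20 µM imiquimod, a TLR7 agonist. There were 3 wild-type and 4 heterozygous libraries for unstressed DMSO, 4 and 3 for unstressed imiquimod, 3 and 5 for Phz with DMSO, and 4 and 4 for Phz with imiquimod. Each library came from larvae pooled by tail-clip genotype, stress and drug. The labels do not say whether replicates were separate clutches, and p-values therefore rest on a spread between libraries that may be partly technical.

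Libraries held 5703056 to 15238153 counts, and the least-counted member, RPL38, still had 104 counts in its lowest library. The list of 18 stem and progenitor genes gave 15, with none at 0 in 15 or more libraries. Summed, they held 1630 to 3005 CPM (counts scaled to a common library total) in wild-type libraries (median 2306). Heterozygous libraries held 1787 to 3197 CPM (median 2088). MYB was the highest of them, at 652 ± 153 CPM (SD, n = 14) in wild-type and 693 ± 179 (n = 16) in heterozygous libraries. HLF and MECOM were the lowest, at 0.397 ± 0.520 and 1.59 ± 2.06 CPM in wild type and 0.754 ± 0.961 and 1.39 ± 1.55 in heterozygotes. The reporter's own gene itga2b was low, at 8.23 ± 10.5 and 9.96 ± 8.80 CPM. Summed markers of several other cell types had different ranges in the genotypes. The summed level of the 8 neutrophil genes found from a list of 13, none of them at 0 in 15 or more libraries, was 8600 to 36930 CPM in wild-type libraries (median 16910) and 5967 to 20980 in heterozygous ones (median 11440). Most of that sum came from 1 gene, lyz, at 12487 ± 6044 CPM in wild type and 9029 ± 4017 in heterozygotes. The summed level of 15 exocrine pancreas genes, taken without a CPA1 copy, ran from 34.2 to 401 CPM in wild type (median 76.3) and from 59.4 to 7908 in heterozygotes (median 126), and amy2a, an amylase of that list, was at 0 in 15 or more of the 30 libraries. The heterozygous libraries above the wild-type range held 7908, 4475, 3445, 2960 and 921 CPM, and the other heterozygous libraries held at most 267 CPM. Macrophage genes summed to 574 to 1708 CPM (median 1090.0) in wild type and 374 to 2955 (median 1251) in heterozygotes. Of the gene copies named MFAP4 in that list, 1 was at 0 in 15 or more libraries. Some other copies were at 0 in at least 1 library of each genotype, and the rest were detected in every library. Epidermal genes summed to 114 to 446 CPM (median 238) against 141 to 991 (median 327), and neural genes to 11.7 to 237 CPM (median 44.2) against 10.3 to 55.9 (median 29.3), with no gene of either list at 0 in 15 or more libraries. The part of the macrophage, epidermal and neural genes in the results was not tested. One library stood apart, replicate 3 of the unstressed imiquimod heterozygotes. Large-subunit genes took 2.62% of its counts, against 3.95% in the next lowest library. It had the most genes detected of all (20109), though replicate 2 of unstressed imiquimod wild type came close (20039). It also had the highest macrophage sum of the series (2955 CPM) and 2960 CPM of the exocrine pancreas genes. In bulk samples, fewer cells of a type and less RNA per cell cannot be told apart.

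RPS14 was checked first. Its level in unstressed DMSO was 674, 474 and 682 CPM in wild type and 263, 191, 218 and 279 CPM in heterozygotes. With imiquimod alone it was 575, 392, 348 and 688 CPM against 269, 203 and 94.8 CPM. After Phz it was 583, 440.0 and 605 CPM against 311, 219, 339.7, 252 and 241 CPM in DMSO. Every heterozygous library lay below every wild-type library in the whole series, and Phz with imiquimod gave the same separation, with a lowest wild-type value of 367 CPM and a highest heterozygous value of 332 CPM. Averaged over the 4 conditions, RPS14 stood at 42.2% of the wild-type level (log2 fold change -1.25 ± 0.14, standard error; adjusted p = 2.4e-06, edgeR quasi-likelihood test).

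The share of counts that went to large-subunit genes was lower in heterozygotes. These genes took 6.00 ± 0.884% of all counts in wild-type libraries (SD, n = 14; range 4.45 to 7.17%) and 4.74 ± 0.890% in heterozygous ones (n = 16; range 2.62 to 6.15%). The ranges overlapped, although 7 heterozygous libraries lay below every wild-type library and 7 wild-type libraries above every heterozygous one. Without the library that stood apart, the heterozygous mean was 4.88 ± 0.712% (n = 15). In unstressed larvae, wild-type and heterozygous means were 6.02 and 5.09% with DMSO and 5.88 and 3.99% with imiquimod. After Phz they were 6.03 and 4.80% with DMSO and 6.09 and 4.88% with imiquimod.

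The small-subunit share differed in the same direction. Its genes other than RPS14 took 3.26 ± 0.527% of counts in wild type and 2.54 ± 0.469% in heterozygotes. The ratio of large- to small-subunit counts was therefore close in the genotypes when all conditions were pooled, at 1.85 ± 0.105 and 1.87 ± 0.0692. Among groups, this ratio was lowest in unstressed DMSO wild type, where the 3 libraries lay between 1.72 and 1.73. The heterozygous libraries of that condition lay between 1.76 and 1.91, above every wild-type one. The ratio was highest in unstressed imiquimod wild type, where the 4 libraries lay between 1.86 and 2.06. Heterozygotes there lay between 1.83 and 1.97 and overlapped with wild type, as the genotypes did in both Phz conditions. Whether the ratio differed between genotypes within a condition was not tested.

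**Figure D1:**
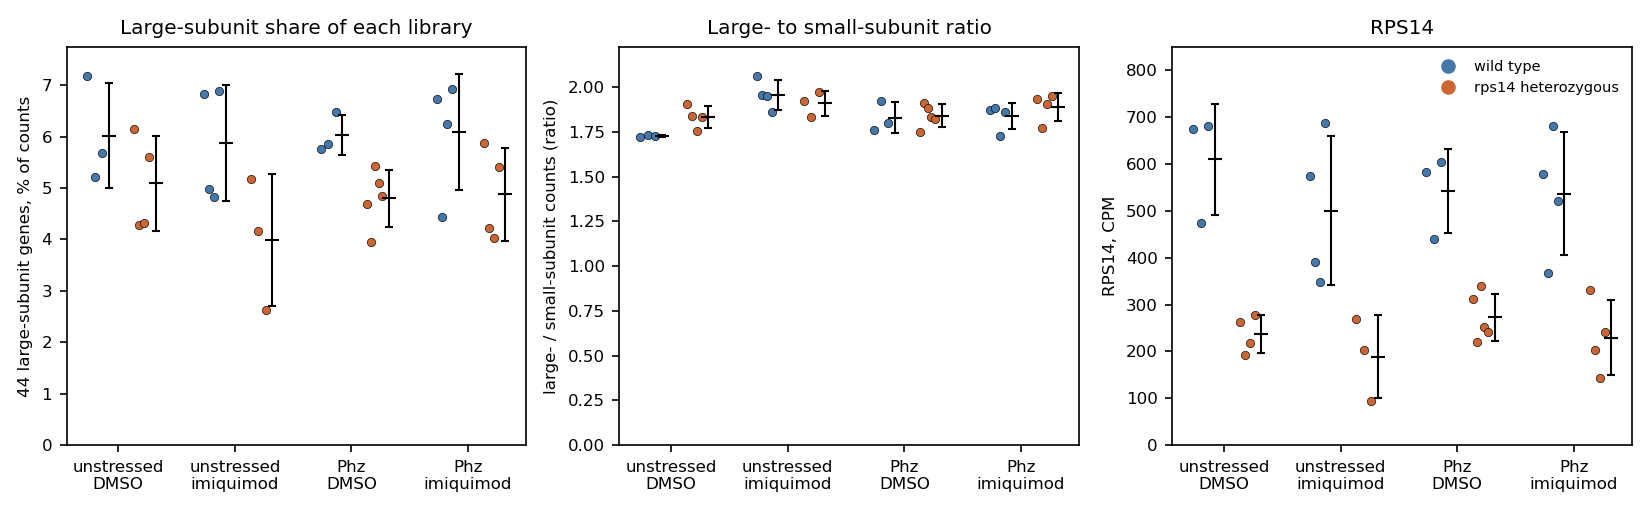
Share of counts taken by the 44 large-subunit genes (left, percent), ratio of large- to small-subunit counts (middle) and RPS14 level (right, CPM) in each library by condition, with wild type in blue and heterozygotes in orange; bars show group mean and SD. RPS14 separates the genotypes in every condition, the large-subunit share is lower on average in heterozygotes with overlapping libraries (6.00% against 4.74%), and the ratio stays between 1.72 and 2.06.

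Across single genes, averaged over the 4 conditions, 20 of the 44 members were lower in heterozygotes and 0 were higher at an edgeR adjusted p under 0.05. Of all 19930 genes tested, 0.437% were called, 0.361% lower and 0.0753% higher. The log2 fold changes of 43 members were negative, with a median of -0.46 (72.7% of wild type), against a median of 0.02 for all genes. An unadjusted p under 0.05 was reached by 86.4% of members and by 8.98% of all genes. Members moved together between libraries, as the within-group SD of their mean was 0.33 log2 units, against a median of 0.34 for single members. Counts of members called, sharing a sign, passing an unadjusted p or separating the genotypes, here and below, are therefore not 44 separate observations. The members lay close together: 6 were between -0.60 and -0.72, 29 between -0.40 and -0.60, 8 between -0.20 and -0.40, and 1 above -0.20. None fell as far as RPS14, which lay 0.79 log2 units below the median member. The count of 20 was 11 with summed exocrine pancreas level as a covariate, 4 with that level taken without a CPA1 copy, 25 with summed neutrophil level, and 7 when libraries were scaled by total counts alone. It was 6 without replicate 3 of Phz DMSO wild type, 7 and 13 without replicates 1 and 3 of unstressed DMSO wild type, and 10 without the heterozygous library that stood apart, and the median member then lay between -0.45 and -0.39. With each library left out in turn, 6 of the 20 (RPL4, RPL10A, RPL13, RPL15, RPL17 and RPL23A) were called in all 30 fits and 14 in at least 25. The lowest numbers were 13 of 30 for RPL10, 18 for RPL7 and 19 for RPL19.

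**Figure D2:**
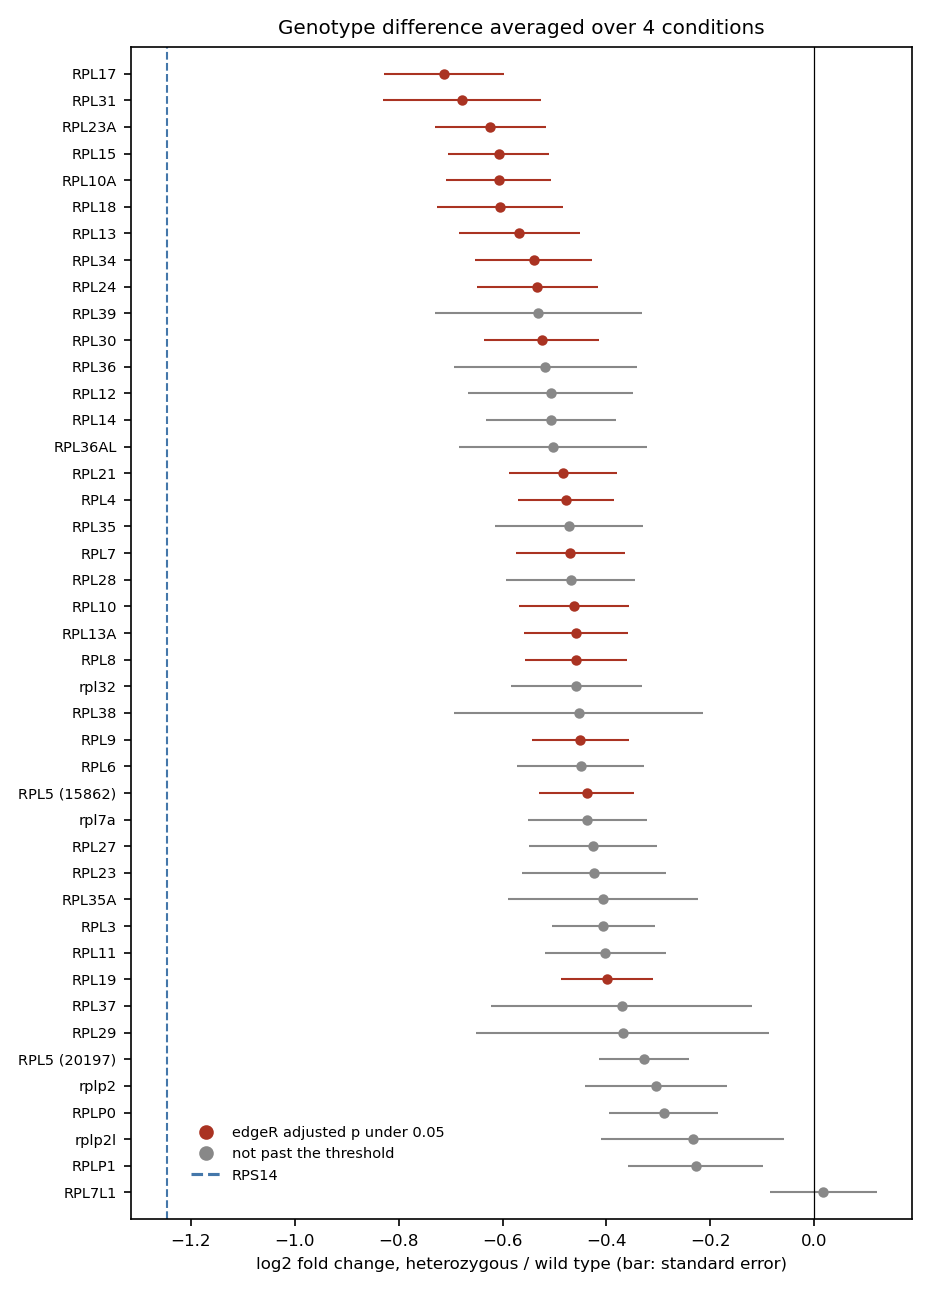
Log2 fold change, heterozygous over wild type, averaged over the 4 conditions, for 43 of the 44 genes; bars show the standard error, red marks an edgeR adjusted p under 0.05, and the dashed line marks RPS14. The genes lie between -0.71 (RPL17) and 0.02 (RPL7L1, whose sign turns in some other settings), all to the right of RPS14 at -1.25.

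Genes of the tunnel and its exit were among those with the clearest differences, as were RPL15 and RPL10A. Whether the tunnel genes as a group differed from the other members was not tested. RPL17, which lines the tunnel through which the new protein leaves the ribosome, had 782 to 1991 CPM in wild-type libraries (median 1304) and 413 to 1335 CPM in heterozygous ones (median 818). In unstressed DMSO its values were 1604, 1145 and 1797 CPM in wild type and 821, 759, 829 and 761 CPM in heterozygotes. The genotypes did not overlap there, nor in Phz imiquimod, where wild type had 1201, 1296, 1472 and 980.0 CPM and heterozygotes 906, 714, 413 and 645 CPM. RPL17 was at 61.0% of wild type on average (log2 -0.71 ± 0.12, edgeR adjusted p = 0.00074).

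RPL23A sits at the tunnel exit, where chaperones and the signal recognition particle dock. It ranged from 553 to 1300.2 CPM in wild type (median 884) and from 322 to 855 CPM in heterozygotes (median 612). All 4 unstressed DMSO heterozygous libraries (559, 620.2, 629 and 501 CPM) lay below the wild-type ones (1081, 842 and 1300.2 CPM), whereas in Phz DMSO the highest heterozygous library (855 CPM) lay above the lowest wild-type one (824 CPM). Averaged over conditions, RPL23A was lower by edgeR (log2 -0.62 ± 0.11, adjusted p = 0.0015). RPL4, whose long loop reaches into the tunnel wall, had a median of 3358 CPM in wild type (2482 to 4256) and 2491 CPM in heterozygotes (1546 to 3190.4). Its difference was smaller and its error too (log2 -0.48 ± 0.09, edgeR adjusted p = 0.0069).

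Of the 7 genes of the tunnel and its rim, 5 were called lower, the others being RPL19 (log2 -0.40) and RPL31 (log2 -0.68), and the median of the 7 was -0.53. Among all members, 20 of 44 (45.5%) were called lower, with a median of -0.46. RPL31 gave the widest single-condition difference of any member, at log2 -1.18 ± 0.31 in unstressed DMSO. Its 3 wild-type libraries there held 439.5, 302 and 626 CPM and the 4 heterozygous ones 219, 181, 218 and 185 CPM, without overlap. The averaged call of RPL31 was lost in 12 of 43 alternative settings, 8 of which left out 1 library. RPL35 (log2 -0.47, adjusted p = 0.17) and RPL39 (log2 -0.53, adjusted p = 0.36) did not pass.

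RPL15, a protein embedded in the ribosomal RNA whose human gene is linked to Diamond-Blackfan anaemia, shared the smallest adjusted p of the family with RPL17. It had 2340.2 to 5114 CPM in wild type (median 3179) and 1573 to 2817 CPM in heterozygotes (median 2252). In Phz DMSO the values were 3179, 4025 and 5114 CPM against 2476, 1757, 2284, 2817 and 2723 CPM. The genotypes did not overlap there or in Phz imiquimod, where wild type lay between 2975 and 3306 CPM and heterozygotes between 1620.3 and 2365 CPM. On average RPL15 was at 65.6% of wild type (log2 -0.61 ± 0.10, edgeR adjusted p = 0.00074).

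RPL10A forms the L1 stalk, a mobile arm that helps the spent tRNA leave. Its wild-type libraries held 2691 to 4161 CPM (median 3351) and its heterozygous ones 1136 to 2870.0 CPM (median 2269). In unstressed imiquimod the values were 3975, 2691, 2698 and 4161 CPM in wild type and 2546, 1743 and 1136 CPM in heterozygotes. These did not overlap, and the same was true in Phz DMSO. The average difference was log2 -0.61 ± 0.10 (edgeR adjusted p = 0.0011).

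At the catalytic core, RPL8, which lies beside the peptidyl transferase centre, and RPL10, which joins last and closes the tRNA channel, were called lower (log2 -0.46 for each; edgeR adjusted p = 0.018 and 0.033). The call of RPL10 was made in 13 of the 30 fits that left out 1 library and that of RPL8 in 26. RPL3, whose loop also reaches the centre, missed the threshold (log2 -0.41 ± 0.10, adjusted p = 0.057). It held 5532 to 9595 CPM in wild type (median 7525) and 3611 to 8037 CPM in heterozygotes (median 5198), and these ranges overlapped. Within conditions the genotypes were apart in unstressed imiquimod, with a highest heterozygous value of 6043 CPM and a lowest wild-type value of 6723 CPM, and in Phz DMSO, with 6693 and 7290.3 CPM. RPL3 was called in 13 of 43 alternative settings, DESeq2 and limma voom among them. Called genes outside these sites included RPL18 (log2 -0.60), RPL13 (-0.57), RPL34 (-0.54), RPL24 (-0.53), RPL30 (-0.52), RPL21 (-0.48), RPL7 (-0.47), RPL13A (-0.46) and RPL9 (-0.45), with edgeR adjusted p between 0.011 and 0.026. RPL30 was the one member whose genotypes did not overlap in 3 of the 4 conditions, the exception being unstressed imiquimod. How many of all genes did so in 3 conditions was not counted.

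RPL5 and RPL11 bind the 5S ribosomal RNA and join the growing subunit with it, and outside the ribosome the same particle restrains the p53 inhibitor MDM2. The first RPL5 copy (ENSDARG00000015862) had 665 to 1059 CPM in wild type (median 934) and 444 to 827 CPM in heterozygotes (median 703), and it was called lower (log2 -0.44 ± 0.09, edgeR adjusted p = 0.015). The second copy (ENSDARG00000020197) had 960.5 to 1381 CPM (median 1184) against 587 to 1139 CPM (median 962) and was not called (log2 -0.33 ± 0.09, adjusted p = 0.092). Over all libraries both copies had overlapping ranges. The genotypes were apart for the first copy in unstressed DMSO, with a highest heterozygous value of 787 CPM and a lowest wild-type value of 828 CPM, and for both copies in Phz DMSO, with 793 and 951 CPM for the first and 1091 and 1113 CPM for the second. The counts of such copies are uncertain where reads could fit either.

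RPL11 had 462 to 833 CPM in wild type (median 651) and 228 to 805 CPM in heterozygotes (median 498). The genotypes overlapped in 3 conditions and were apart in unstressed imiquimod, where wild type had 577, 491, 463 and 764 CPM and heterozygotes 440.3, 380.0 and 228 CPM. The averaged difference did not pass (log2 -0.40 ± 0.12, edgeR adjusted p = 0.14).

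The stalk proteins gave none of the calls. RPLP0 carries the P1 and P2 proteins, which draw elongation factors to the ribosome. It held 2548 to 4329 CPM in wild type (median 3477) and 1605 to 4237 CPM in heterozygotes (median 2678; log2 -0.29 ± 0.10, edgeR adjusted p = 0.32). The genotypes were apart for RPLP0 in Phz DMSO, with a highest heterozygous value of 2964 CPM and a lowest wild-type value of 3192 CPM. They overlapped in the other conditions, and RPLP0 was called in 1 of 43 alternative settings. RPLP1 held 815 to 2005 CPM (median 1441) and 472 to 1859 CPM (median 1197; log2 -0.23 ± 0.13, edgeR adjusted p = 0.64). Its genotypes overlapped in all 4 conditions: in unstressed DMSO wild type had 1756, 1255 and 1359 CPM and heterozygotes 1532, 1139.9, 1177 and 1649 CPM. Both rplp2 (log2 -0.31) and rplp2l (log2 -0.23) also stayed under the threshold, so 0 of 4 stalk proteins were called, with a median of -0.26. RPL12, at the base of the stalk, was at log2 -0.51 ± 0.16 (adjusted p = 0.20). Whether the stalk proteins as a group differed from the other members was not tested.

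RPL7L1, a relative of RPL7 that human cells carry in their pre-ribosomes, was the member whose averaged value was not negative. Its unstressed DMSO libraries held 94.0, 146 and 153 CPM in wild type and 129, 173, 174 and 112 CPM in heterozygotes. In Phz DMSO they held 168, 148 and 121 CPM against 141, 144, 167, 143 and 117 CPM. The genotypes overlapped in all 4 conditions, and the averaged difference was log2 0.02 with a 95% interval of -0.19 to 0.22 (edgeR adjusted p = 1.0). Its sign turned in some other settings. RPL7 itself, with 1806 to 2804 CPM in wild type (median 2661) and 971 to 2500.3 CPM in heterozygotes (median 1850), was called lower (log2 -0.47 ± 0.10, edgeR adjusted p = 0.026). That call was lost in 15 of 43 alternative settings, 12 of which left out 1 library and 3 of which used either pancreas covariate or total counts as the only scaling.

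**Figure D3:**
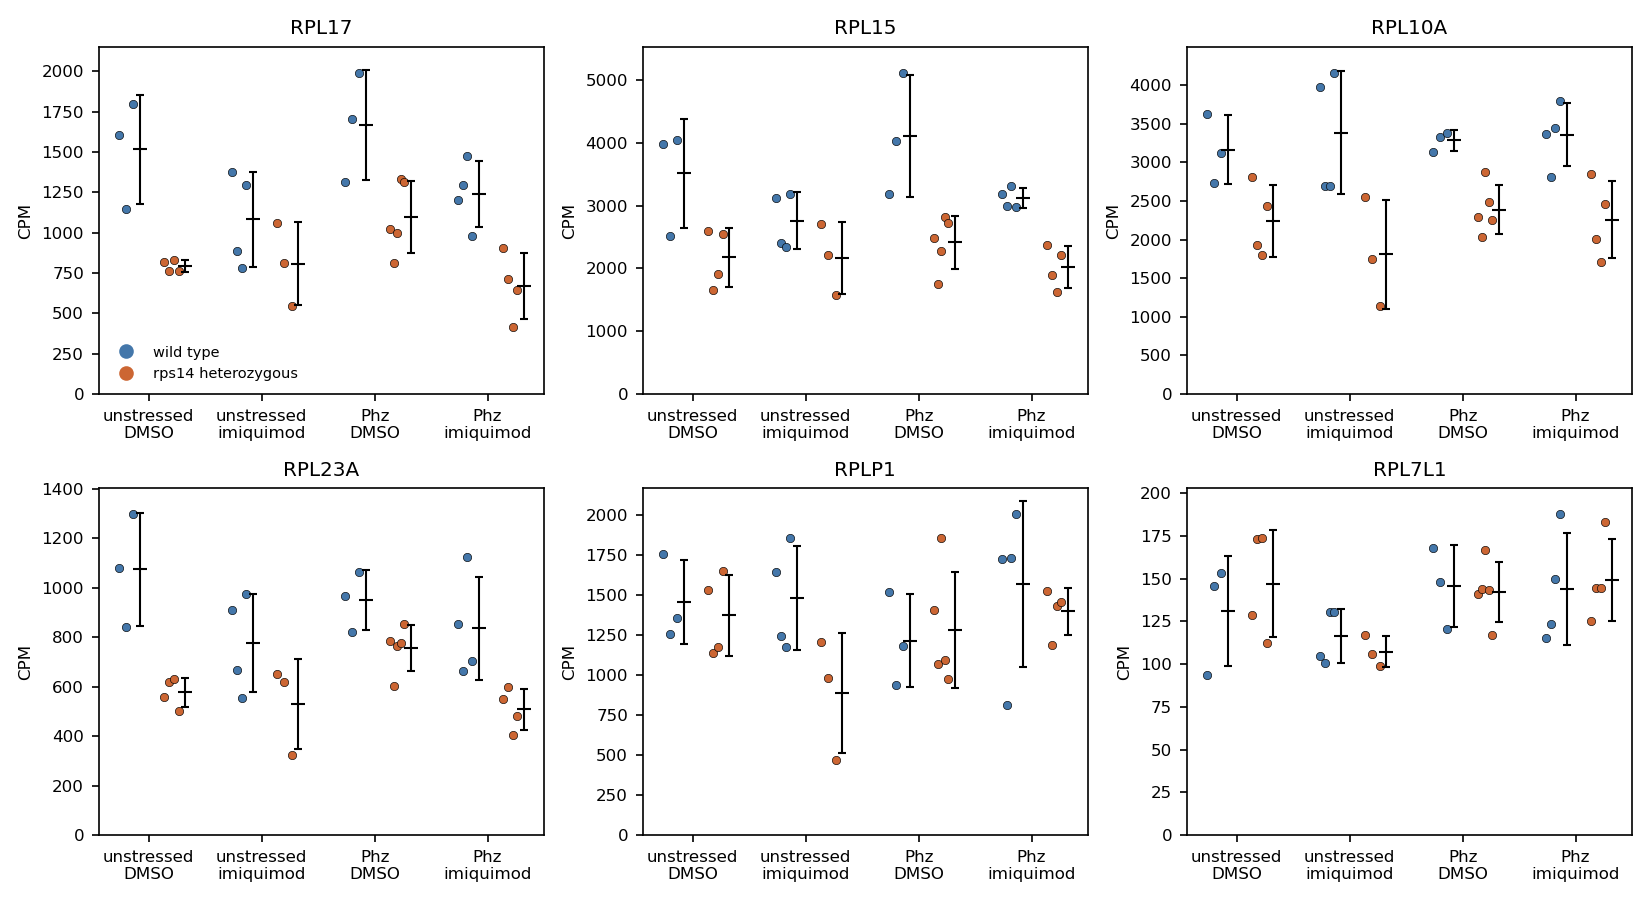
CPM of 6 genes in each library by condition, with wild type in blue and heterozygotes in orange; bars show group mean and SD. RPL17, RPL15, RPL10A and RPL23A are lower on average in heterozygotes in each condition, with overlapping libraries in some conditions. For RPLP1 and RPL7L1 the genotypes overlap in all 4 conditions, and RPLP1 is lower on average in heterozygotes except in Phz DMSO.

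To ask which members departed from the rest, libraries were also scaled by their summed large-subunit counts. On that scale 16.2% of all genes were called higher in heterozygotes and 0.0552% lower, since the sum that was lower in heterozygotes is held constant by this scaling. The median log2 difference of all genes was 0.51 on that scale, so a member near 0.5 lay at the level of the median gene. Of the members, 1 was called, RPL7L1, at log2 0.50 ± 0.15 (95% interval 0.21 to 0.79; edgeR adjusted p = 0.020). Its call ended with the exocrine pancreas covariate (adjusted p = 0.056, and 0.109 without the CPA1 copy) and without the heterozygous library that stood apart (adjusted p = 0.060). RPLP1 (log2 0.23, adjusted p = 0.094) and RPLP0 (log2 0.16, adjusted p = 0.13) lay above the sum and RPL17 (log2 -0.25, adjusted p = 0.12) below it, none past the threshold. RPS14 fell further than the large subunit, by 0.80 on the same log2 scale (edgeR adjusted p = 1.6e-05).

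Of the 9 measured counterparts of human Diamond-Blackfan anaemia genes, counting both RPL5 copies, 4 were called lower (RPL15, RPL18, RPL31 and the first RPL5 copy), with a median of log2 -0.44. This was close to the whole family, where 20 of 44 members (45.5%) were called lower with a median of -0.46. RPL11, RPL27 (log2 -0.43, edgeR adjusted p = 0.14), RPL35, RPL35A (log2 -0.41, adjusted p = 0.48) and the second RPL5 copy were not called. Among the members that missed the threshold were several with wide spread between libraries. RPL29 (log2 -0.37 ± 0.28), RPL37 (-0.37 ± 0.25) and RPL38 (-0.45 ± 0.24) had within-group SDs of 0.84, 0.76 and 0.74 log2 units, against a median of 0.34 over members. RPL38, for example, had 165, 108 and 178 CPM in unstressed DMSO wild type and 134, 29.7 and 46.2 CPM in Phz DMSO wild type. The Phz DMSO libraries fell into sets that held the genotypes unevenly. Replicates 2 and 3 of wild type and 4 and 5 of heterozygotes had 29.7 to 46.2 CPM of RPL38. Their neutrophil sums were 7238 to 10155 CPM. The others held 47.5 to 134 CPM of RPL38, with neutrophil sums of 14781 to 20983 CPM. No fit held a term for these sets, and their part in the Phz DMSO comparisons was not tested.

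Within single conditions the same direction held with less precision. In unstressed larvae the members' median log2 difference was -0.53 with DMSO (43 negative) and -0.52 with imiquimod (44 negative). After Phz it was -0.35 with DMSO (42 negative) and -0.44 with imiquimod (43 negative). In all 4 conditions at once, 41 members (93.2%) were negative, against 8.04% of all genes. The others were RPLP1, rplp2l and RPL7L1. Fewer members were negative in unstressed imiquimod without the heterozygous library that stood apart, as given below. The count of 41 depends on that library and was not repeated without it. By edgeR, 0 members were called in any single condition, where the background was 0.00502% of all genes in each of the first 3 conditions and 0% in Phz imiquimod. At an unadjusted p under 0.05 there were 22, 24, 15 and 22 of the 44 members, against 8.17, 4.06, 7.83 and 3.51% of all genes. DESeq2 called 1 member in unstressed imiquimod and 0 in the other conditions, and limma voom called 0 in each. The smallest edgeR adjusted p of a member was 0.24, for RPL23A in unstressed DMSO (log2 -0.90 ± 0.22).

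The members of smallest p in each condition were partly shared, and no member's genotype difference was called as different with Phz or with imiquimod. By edgeR's unadjusted p, RPL23A, RPL17 and RPL31 led in unstressed DMSO, RPL10A (log2 -0.90 ± 0.21), RPL8 and RPL3 in unstressed imiquimod, RPL15 (log2 -0.77 ± 0.19), RPL18 and RPL17 in Phz DMSO, and RPL17 (log2 -0.89 ± 0.22), RPL23A and RPL15 in Phz imiquimod. Without the heterozygous library that stood apart, the unstressed imiquimod median was -0.25 with 35 members negative. All heterozygous libraries lay below all wild-type libraries for 18 members in unstressed DMSO, where 3.01% of all genes did so. The same held for 7 members in unstressed imiquimod (3.75%), 17 in Phz DMSO (1.85%) and 5 in Phz imiquimod (1.29%). Over all 30 libraries at once it held for 0 members and for 0.01% of genes, RPS14 among them.

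**Figure D4:**
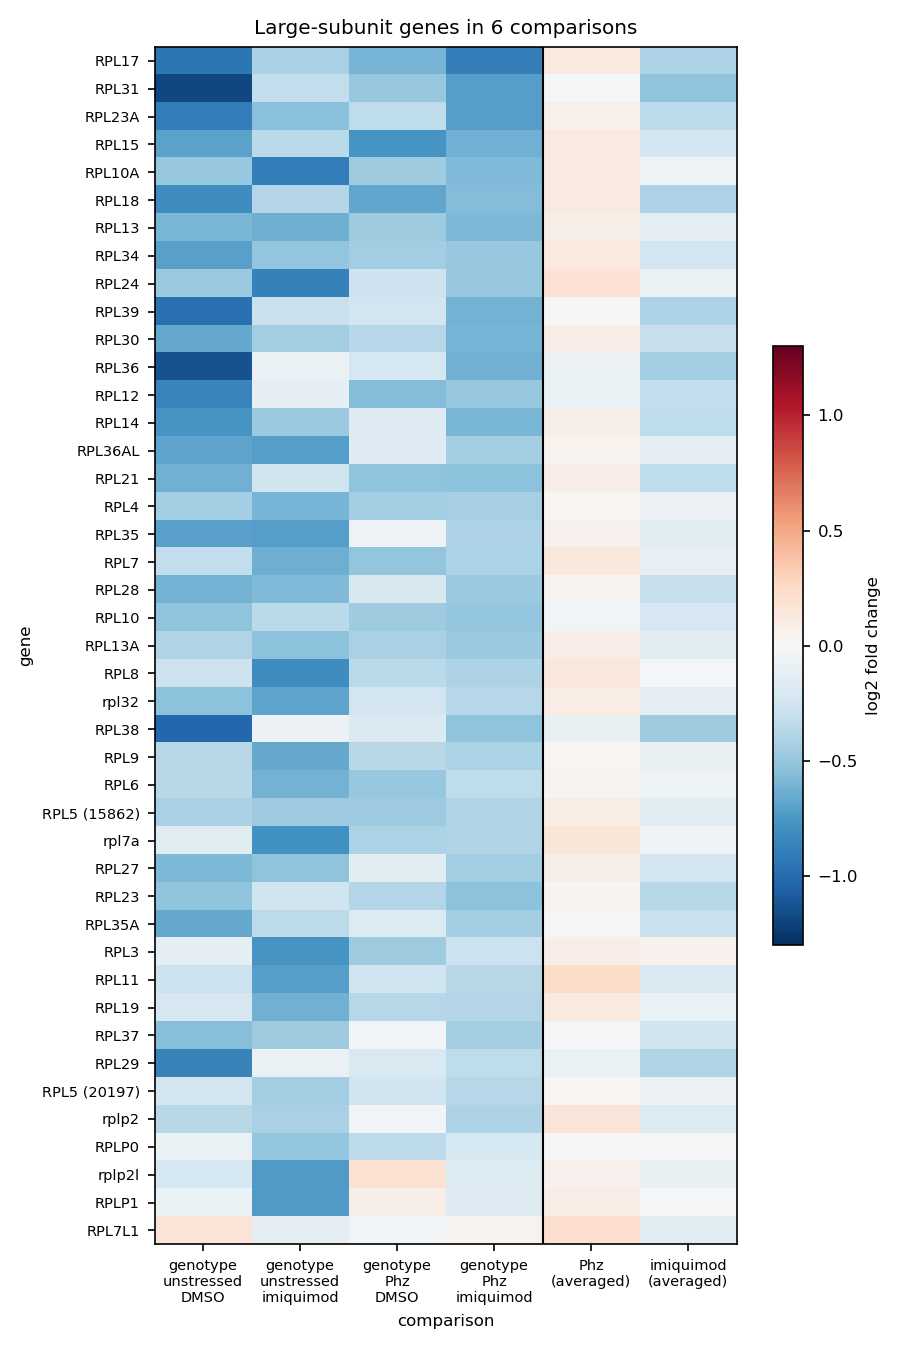
Log2 fold change of 43 of the 44 genes (top to bottom, ordered by the averaged genotype difference) in the genotype comparison of each of the 4 conditions and in the averaged Phz and imiquimod comparisons; blue is lower and red is higher. The 4 genotype columns are blue for nearly all genes (medians over all 44 of -0.53, -0.52, -0.35 and -0.44), while the Phz column is near 0 (median 0.08) and the imiquimod column slightly lower (median -0.16).

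No member differed past the threshold between larvae that had and had not been exposed to Phz. Averaged over genotype and drug, 0 members were called by edgeR, where 0.0201% of all genes were, and the median log2 difference was 0.08, with 35 of 44 positive. The members of smallest p were RPL7L1 (log2 0.22 ± 0.10, edgeR adjusted p = 0.37) and RPL11 (log2 0.24 ± 0.12, adjusted p = 0.40), and 2 members against 12.35% of all genes had an unadjusted p under 0.05. Without the library that stood apart the median was 0.02. The genotype difference with Phz minus that without had a median of 0.14 over members, 0 were called (background 0%) and 0 had an unadjusted p under 0.05. That median was -0.01 without the same library.

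No member passed the threshold for imiquimod either, although nearly all values had the same sign. Because members moved together between libraries, this shared sign is not 44 separate observations. Averaged over genotype and stress, 43 of 44 members were negative with a median of -0.16, against 0.06 for all genes. By edgeR 0 were called, where 0.00502% of all genes were, and 27.3% of members against 8.98% of genes had an unadjusted p under 0.05. RPL17 (log2 -0.40 ± 0.12) and RPL31 (log2 -0.53 ± 0.15) had the smallest adjusted p, 0.24 for both, followed by RPL18 (log2 -0.40, adjusted p = 0.28) and RPL23A (log2 -0.34, adjusted p = 0.30). In the wild type, RPL31 held 238, 191, 143 and 318 CPM with imiquimod alone and 439.5, 302 and 626 CPM in unstressed DMSO, with an overlap of 1 library each. Without the library that stood apart, 37 members were negative and the median was -0.12. The genotype difference in imiquimod minus that in DMSO had a median of -0.10 (background 0%, 0 members called, 0 with an unadjusted p under 0.05), and of 0.06 without that library. The member of smallest p was RPLP1 (log2 -0.45 ± 0.26, edgeR adjusted p = 0.90).

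Neighbouring gene groups were read in the averaged genotype comparison, in which 0.361% of all genes were called lower and 0.0753% higher. Of 34 small-subunit genes other than RPS14, 12 were called lower and 1 higher, rps27l, with a median of log2 -0.43. Other genes with TOP messages, mostly translation factors, were called lower in 8 of 27 cases (median -0.40). Examples were eef2b, an elongation factor (log2 -0.49 ± 0.07), EEF1B2, an exchange factor of elongation (log2 -0.62 ± 0.10), EIF3M, an initiation factor subunit (log2 -0.52 ± 0.09), and naca, a chaperone of new proteins at the tunnel exit (log2 -0.58 ± 0.10), with edgeR adjusted p of at most 0.0019.

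Among 58 genes for the machinery that assembles the large subunit, 3 were called lower and 0 higher, and the median was log2 0.13. Whether they differed as a group from the large-subunit proteins was not tested. The 3 were nop53, a nucleolar factor (333 ± 46.4 against 204 ± 43.8 CPM; log2 -0.72 ± 0.10, edgeR adjusted p = 0.00014), RSL24D1 (1049 ± 174 against 640.4 ± 157 CPM; log2 -0.73 ± 0.12, adjusted p = 0.00074) and GTPBP4, a nucleolar GTPase (log2 -0.61 ± 0.13, adjusted p = 0.015). In yeast the RSL24D1 counterpart holds the place of RPL24 until late assembly and that of MRTO4 holds the place of RPLP0. MRTO4 was not called (log2 0.26 ± 0.12, edgeR adjusted p = 0.50). Of 23 genes that control TOP messages, 0 were called lower and 1 higher, eif4ebp1, an inhibitor of cap-dependent translation (384 ± 46.6 CPM in wild type, 506 ± 67.7 in heterozygotes; log2 0.40 ± 0.08, edgeR adjusted p = 0.015). LARP1, which binds the TOP motif, and MTOR did not pass the threshold (log2 -0.31, adjusted p = 0.73, and -0.17, adjusted p = 0.81).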

How the data were processed

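The authors deposited 1 table of raw read counts per gene for 30 libraries. DESeq2, Subread 2.0.0 with featureCounts, SAMtools 1.9, HISAT2 2.1.0, Trimmomatic 0.39, FastQC 0.11.9 and the build GRCz11 are named in the submitters' processing notes. Annotation release, strand setting and gene filter are not given in the sources used here, so reads of overlapping antisense genes cannot be told apart from those of a gene. Smart-seq2 reads carry no molecular identifiers. Gene lengths were not used, so levels were compared between libraries and not between genes.

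Counts were analysed in R 4.3.3 with edgeR 4.0.16: filterByExpr, TMM factors (0.896 to 1.07) and the robust quasi-likelihood test in 1 model of the 8 groups. P-values were Benjamini-Hochberg adjusted over all 19930 genes within each comparison and called under 0.05. Levels are CPM computed with TMM-scaled library sizes, and errors of fold changes are standard errors from the F statistic. A further fit took the summed counts of the 44 members as library size. Alternatives used DESeq2 1.42.0, limma 3.58.1 voom, other scalings and filters, covariates, a term for the libraries the labels number S1 to S6, and each library left out in turn. Scripts were checked on simulated counts. The members, gene lists and tests were chosen with earlier results of these data known. Every member could be named. A full account was planned for the members of smallest and largest p and the most and least counted. The plan also held the 5S, stalk, duplicated and anaemia genes and the leading members of each comparison. Some of these, such as RPL8, RPL13, RPL18 and RPL27, were given by fold change and p alone. RPL36AL and rpl7a appear only in the figures. From other lists up to 4 genes of smallest p were named. MRTO4, LARP1, MTOR and rps27l, outside that rule, were named after their values were seen, as were RPL30 and the marker genes. Replicate numbers recur across groups. Same-numbered libraries deviated together at most weakly (94 pairs, median r 0.05, lowest -0.16, highest 0.18, 15 over 0.1). Pairs of different number had a median r of -0.02. No block was used in the main fit. No 2 libraries agreed within counting noise. Values of 1 member and of 1 related gene are not reported here.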

Additional observations from a re-analysis of the deposited data

Results flagged for a closer look

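Of 155 sets of values from groups of 4 or 5 libraries, 5 held a library far from the others of its group, and chance gives such a library in about 1 of 20 sets. Replicate 2 of Phz imiquimod wild type was low for RPL7, at 1806 CPM against 2705 to 2777 CPM in the others, and for RPL35, at 192.2 CPM against 483 to 522 CPM. Replicate 1 of the unstressed DMSO heterozygotes was high for RPL11, at 727.3 CPM against 469 to 507 CPM. Replicate 2 of the same group was low for RPL36, at 160.5 CPM against 209.9 to 215 CPM. Replicate 3 of Phz imiquimod wild type had a ratio of large- to small-subunit counts of 1.73, against 1.86 to 1.88 in the others.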

How the results depend on the processing

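The averaged genotype comparison called 20 members and 0 in the other direction. The count was 7 with total counts as the only scaling, which moved the median of all genes by 0.10 log2, 11 and 4 with the exocrine pancreas covariate with and without the CPA1 copy, and 6 to 27 with 1 library left out. RPL10A, RPL15, RPL17 and RPL23A were called under all 43 alternatives. Other scalings, filters and tools, the neutrophil covariate and the S1 to S6 settings gave 20 to 29. The median member stayed between -0.54 and -0.37. In unstressed imiquimod the count of 0 became 2 with the S1 to S6 term, 1 with the neutrophil covariate, 1 with DESeq2 and 0 to 2 with 1 library left out (2 without heterozygous replicate 1). Scaled to the large-subunit sum, the count of 1 became 0 with either pancreas covariate and 0 to 2 with 1 library left out (2 without replicate 1 of Phz DMSO wild type). The other 7 comparisons kept 0 calls under every alternative. The sign of RPL7L1 turned without libraries S1 to S6 (-0.055), with the pancreas covariates (-0.0022 and -0.0052), and its value lay between -0.034 and 0.055 with 1 library left out. The causes were not tested. Same-numbered libraries were at most weakly correlated. With the replicate number as a block, the counts were 26 (20 shared) in the averaged comparison and 2 on the large-subunit scale, and the block changed no other count. Alternatives with covariates for neutrophil genes or without CPA1 were chosen after seeing the data. Groups of 3 to 5 libraries limit single-condition comparisons.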
